A study of Mus musculus with 2 samples.

Results

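The genes described here are the nuclear-encoded subunits of the mitochondrial respiratory chain and ATP synthase, measured in single nuclei of the mouse brain under Normal conditions and 12 h after subarachnoid haemorrhage (SAH). Of 32285 genes in the count tables, 86 were members by symbol: those that begin with Nduf (Ndufaf assembly factors left out), Uqcr, Atp5, Cox4i, Cox5, Cox6, Cox7 or Cox8, and Sdha to Sdhd. Grouped by symbol, they comprised 39 genes of complex I, 4 of complex II, 8 of complex III, 18 of complex IV and 17 of complex V. Among those of complex I, Ndufb1-ps is annotated as a long non-coding RNA and not as protein-coding. The rule used gene names and no measured value. Complexes I to IV pass electrons from NADH and succinate to oxygen, all but complex II pump protons across the inner mitochondrial membrane as they do so, and complex V, the ATP synthase, uses the proton gradient to make ATP. Their subunits are encoded in part by mitochondrial DNA (the mt- genes) and in larger part by nuclear genes, which are transcribed in the nucleus and translated in the cytosol. Neurons draw most of their ATP from this chain. Nuclei hold newly made and not yet exported RNA, so a level in a nucleus is not a level of the mRNA in the whole cell.

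Both groups were male mice 6 to 8 weeks old by the labels, with no transgene or drug named. The article names the strain as C57BL/6J and gives an older age range for its mice. The SAH group had the arteries at the base of the brain perforated from within and was killed 12 h later. Tissue from 2.34 mm in front of bregma to -2.18 mm relative to bregma, from the medial prefrontal cortex to the central lateral thalamus, was taken from the bleeding side and pooled from 3 mice per group. The control is named Normal in the labels, whereas the article describes sham-operated controls, so whether the control mice had an operation could not be settled. Each condition had 1 library. Differences between the conditions therefore carry no test, and the intervals below cover counting error only, with neither mice nor libraries as replicates. Condition, library and pool cannot be told apart.

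Promoter windows are shown for the members that were among the 3 lowest or 3 highest log2 ratios of a main class of nuclei (described next, members with at least 200 UMIs) and held a match to one of 3 motifs searched on both strands. The windows run from 250 bases before to 50 bases after the RefSeq transcript start on GRCm38.p6, and capitals mark the matches. The motifs were the NRF1 core GCGCATGCG, the ETS core CCGGAAGT and the YY1 core AAGATGGCG, named for the transcription factors that bind them, and none overlaps another by its letters in these windows. Uqcr11 encodes a small subunit of complex III, Cox8a the smallest subunit of complex IV, and Ndufs4 an accessory subunit of complex I that is needed for its full assembly.
Uqcr11 (chr10:80406772-80407071, minus strand; 1 NRF1 and 1 ETS match): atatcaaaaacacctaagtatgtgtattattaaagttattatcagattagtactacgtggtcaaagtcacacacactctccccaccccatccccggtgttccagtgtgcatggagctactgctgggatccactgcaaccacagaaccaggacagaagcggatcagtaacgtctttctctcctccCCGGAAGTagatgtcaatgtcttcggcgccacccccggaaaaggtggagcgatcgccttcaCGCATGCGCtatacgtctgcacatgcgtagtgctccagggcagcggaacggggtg
Cox8a (chr19:7217567-7217866, minus strand; 2 ETS matches): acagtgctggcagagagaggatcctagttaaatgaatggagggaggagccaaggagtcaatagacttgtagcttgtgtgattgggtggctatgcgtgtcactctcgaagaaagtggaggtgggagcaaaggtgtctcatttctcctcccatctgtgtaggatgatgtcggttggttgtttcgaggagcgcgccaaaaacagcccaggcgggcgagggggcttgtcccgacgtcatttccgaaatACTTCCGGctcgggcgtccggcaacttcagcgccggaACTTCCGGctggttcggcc
Ndufs4 (chr13:114388045-114388344, minus strand; 1 YY1 match): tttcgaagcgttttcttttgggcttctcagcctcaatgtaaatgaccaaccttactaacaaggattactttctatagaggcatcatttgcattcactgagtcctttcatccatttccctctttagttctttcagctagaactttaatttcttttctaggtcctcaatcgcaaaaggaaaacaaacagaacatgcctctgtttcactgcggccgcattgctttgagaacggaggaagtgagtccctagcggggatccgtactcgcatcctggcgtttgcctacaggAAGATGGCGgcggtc
Of the 86 members, 68 had a window. The NRF1 core was in 8 of them (11.8%, against 1.95% of 27025 genes), the YY1 core in 7 (10.3% against 1.64%) and the ETS core in 5 (7.35% against 4.31%). Members with and without a motif had overlapping log2 ratios of SAH over Normal. In excitatory-like nuclei those with the NRF1 core ranged from -1.29 to -0.10 and had a median of -0.89 (n = 8), beside -0.67 for the 57 without it, but in microglia-like nuclei the medians were -0.86 with (n = 5) and -0.93 without it. Members with the YY1 core had the higher median in excitatory-like nuclei, at -0.49 (n = 7) beside -0.71, and those with the ETS core the lower, at -0.84 (n = 5) beside -0.68. A match describes letters in a window and not a bound site.

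Nuclei were assigned to classes by marker genes. The Normal library held 12204 nuclei and 114970719 unique molecular identifiers (UMIs), and the SAH library 18209 nuclei and 172604358 UMIs. The article states more nuclei for the control group than for the SAH group, the opposite order to the files. Limits on genes, mitochondrial and haemoglobin UMIs left 12133 Normal and 18180 SAH nuclei. The libraries shared 78 barcode sequences. A nucleus entered a class with at least 3 of its markers and at least 5 marker UMIs per 10000, and nuclei that passed for several classes (538 Normal, 813 SAH) were set aside. This gave 3075 Normal and 4189 SAH excitatory-like nuclei, 2137 and 2371 inhibitory-like nuclei, 1848 and 4001 oligodendrocyte-like nuclei, and 1062 and 1473 microglia-like nuclei. A further 3013 and 4636 neurons carried general neuronal markers only. Astrocyte, oligodendrocyte precursor, endothelial and mural classes held under 50 nuclei in each library, so they are not described. Median depth ranged from 1406 UMIs in Normal microglia-like nuclei to 13707 in SAH excitatory-like nuclei, and was higher in SAH in all 4 main classes. All markers of each of the 4 classes were detected in their class in both libraries. The marker level was lower in SAH in oligodendrocyte-like nuclei (summed 23285 against 11922 counts per 1000000 UMIs of the class, CPM) and microglia-like nuclei (19134 against 10319). In the same nuclei the inhibitory markers summed to 1975 and 2149 CPM in oligodendrocyte-like and 389 and 405 in microglia-like nuclei. General neuronal markers were higher in SAH, at 1446 and 1766 CPM in oligodendrocyte-like and 1655 and 2130 in microglia-like nuclei. Oligodendrocyte markers in microglia-like nuclei were lower in SAH, at 408 and 222 CPM. Haemoglobin RNA was lower in SAH, from 4.39 to 1.60 CPM in excitatory-like nuclei. The part of depth, markers and haemoglobin RNA in the results below was not tested.

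Respiratory chain RNA was lower in the SAH library than in the Normal library in all 4 main classes. Levels are given in CPM of the class. In excitatory-like nuclei the 86 members summed to 1685 in Normal and 1189 in SAH, a log2 ratio of -0.50 (95% exact conditional binomial interval, as for every range after a log2 ratio below, -0.52 to -0.49). In inhibitory-like nuclei the sums were 2564 and 1652 (-0.63, -0.65 to -0.62). The glial classes began at higher levels and showed larger differences. Oligodendrocyte-like nuclei had 3311 in Normal and 1823 in SAH (-0.86, -0.89 to -0.83), and microglia-like nuclei 3769.6 and 2181 (-0.79, -0.83 to -0.74). The neurons with general markers only went the same way, from 2108 to 1406 (-0.58). As a share of a nucleus's RNA, respiratory chain transcripts were thus highest in microglia-like and lowest in excitatory-like nuclei in both libraries. The mt- genes, a measure of cytoplasm in the preparation, stood in the same order, from 495 CPM in Normal excitatory-like to 2626 in Normal microglia-like nuclei, and their part in this order was not tested. The counts behind each sum ran from 7330 UMIs in Normal microglia-like nuclei to 75689 in Normal excitatory-like nuclei. In these data fewer transcripts per nucleus and a different share of the total cannot be told apart.

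**Figure D1:**
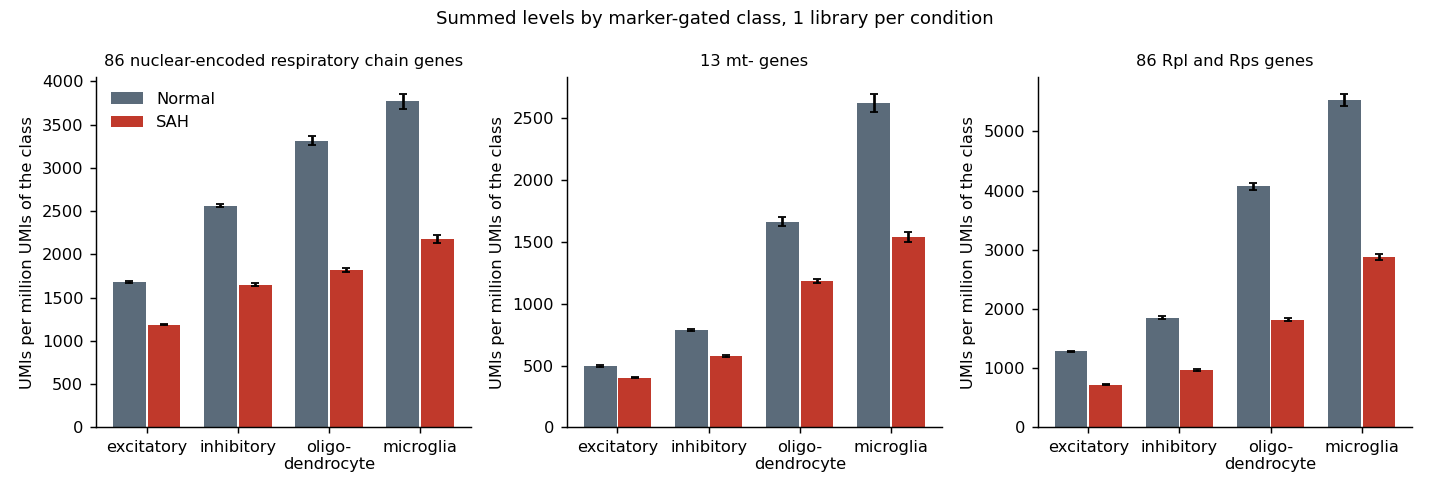
Summed UMIs per 1000000 UMIs of a class (bars, from 0) for the respiratory chain genes, the mt- genes and the Rpl and Rps genes in Normal and SAH, with exact Poisson 95% intervals that cover counting error. All 3 lists are lower in SAH in each class, and the respiratory chain sum in oligodendrocyte-like nuclei goes from 3311 to 1823.

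Most single members were lower as well. A member was counted in a class with at least 100 UMIs over both libraries and called at a level 1.5-fold lower or higher. Of the 86 members, 80 passed the minimum in excitatory-like nuclei, 80 in inhibitory-like, 79 in oligodendrocyte-like and 63 in microglia-like nuclei. In excitatory-like nuclei 46 were called lower, beside 16.4% of all 15421 genes that passed, and 0 higher, beside 12.4%. In inhibitory-like nuclei 56 were called lower (all genes 18.7%) and 0 higher (all genes 8.25%). In oligodendrocyte-like nuclei the counts were 59 lower (all genes 17.5%) and 0 higher (all genes 13.6%), and in microglia-like nuclei 41 lower (all genes 15.4%) and 0 higher (all genes 13.9%). These are shares of 57.5%, 70%, 74.7% and 65.1% of the members counted. The members' median log2 ratios were -0.69, -0.80, -0.96 and -0.89 in that order, where the medians of all genes were -0.13, -0.19, -0.062 and -0.0091. Since the all-gene median lay up to -0.19 from 0, centring on it gave 38, 43, 58 and 41 members lower, beside 11%, 9.96%, 15.2% and 15.0% of all genes. With a 2-fold limit the counts were 16, 29, 35 and 26, beside 4.05%, 4.37%, 5.58% and 5.39% of all genes.

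Of 63 members that passed in all 4 classes, 32 were at least 1.5-fold lower in each of them, beside 5.86% of the 7583 genes that passed in all 4, and 12 in none, beside 75.9%. The 32 members are 50.8% of those counted. Across members, the log2 ratios of excitatory-like and inhibitory-like nuclei had a Spearman correlation of 0.93 (n = 80), and those of oligodendrocyte-like and microglia-like nuclei 0.88 (n = 63), a description of points that come from the same 2 libraries. The 86 members also included 6 that passed in no main class: Cox4i2, Cox6b2, Cox7a1, Cox8b, Cox8c and Ndufa4l2, tissue-restricted paralogues of other members.

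**Figure D2:**
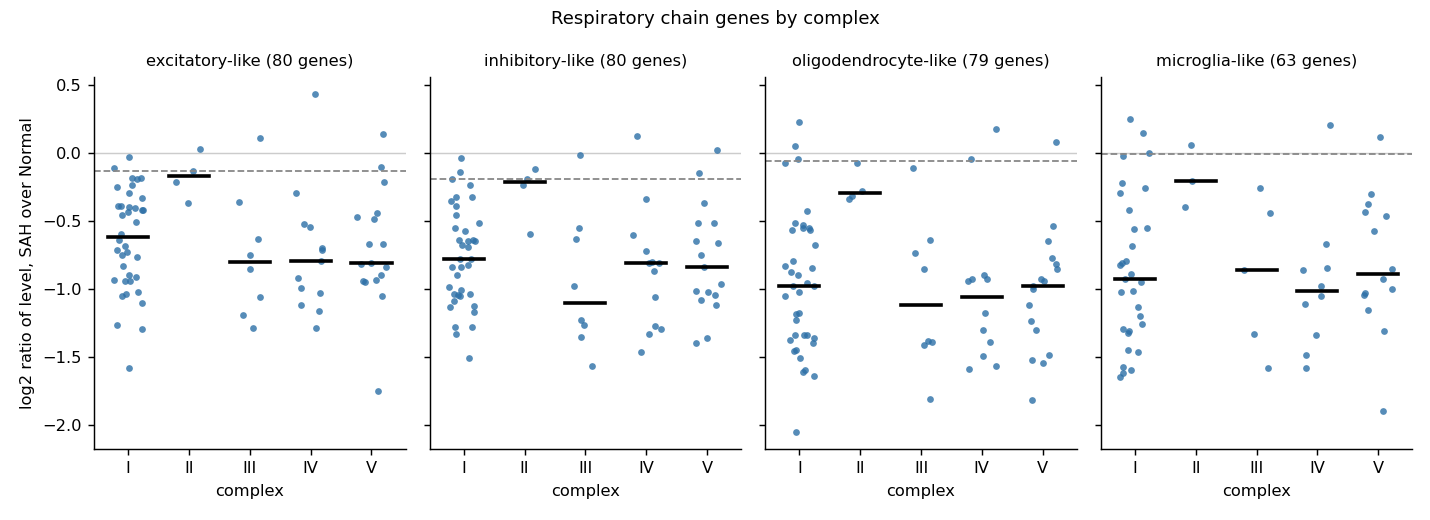
Log2 ratio of SAH over Normal for each member with at least 100 UMIs (points), by complex, in the 4 main classes, with the median of each complex (black bar) and the median of all genes (dashed line). Complex II lies nearest to the all-gene median, and in the other complexes most points are below it.

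Complex I takes electrons from NADH. Ndufs4 and, in the glial classes, Ndufs1 were near equal between the libraries, while several small accessory subunits were more than 2-fold lower in SAH. Summed over 39 genes, the level was 766 in Normal and 547 in SAH in excitatory-like nuclei (log2 ratio -0.49) and 1481 and 829 in oligodendrocyte-like nuclei (-0.84). Ndufs4, shown above with its YY1 match, was near equal in the 2 libraries, with 98.6 and 96.5 CPM in excitatory-like nuclei (log2 ratio -0.031, -0.087 to 0.025) and 112 and 123 in microglia-like nuclei (log2 ratio 0.14, -0.092 to 0.38). Ndufv2, an iron-sulphur subunit of the NADH-oxidizing module, had 42.2 and 49.5 CPM in oligodendrocyte-like nuclei (log2 ratio 0.23, -0.003 to 0.47) and 41.1 and 48.98 in microglia-like nuclei (log2 ratio 0.25, -0.13 to 0.65), the highest ratio of a member in each. In inhibitory-like nuclei its log2 ratio was -0.24 (-0.36 to -0.12), and a difference between the classes was not tested. Ndufs1, the largest subunit of that module, was lower in neurons, at a log2 ratio of -0.24 (-0.31 to -0.16) in excitatory-like and -0.32 (-0.42 to -0.23) in inhibitory-like nuclei, and stood at 0.052 (-0.12 to 0.22) in oligodendrocyte-like and -0.027 (-0.32 to 0.27) in microglia-like nuclei. Ndufv1, which binds NADH and the flavin, was lower in neurons, at log2 ratios of -0.39 in excitatory-like and -0.55 in inhibitory-like nuclei. It was also lower in oligodendrocyte-like nuclei and was under the minimum in microglia-like nuclei.

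The accessory subunits held the lowest ratios of complex I. Ndufa1, an X-linked subunit needed for assembly, had 12.5 CPM in Normal and 4.19 in SAH in excitatory-like nuclei (log2 ratio -1.58, -1.80 to -1.37), and 19.9 and 6.98 in inhibitory-like nuclei (log2 ratio -1.51, -1.76 to -1.26). Ndufb7 gave the lowest ratio of a member in oligodendrocyte-like nuclei, with 140 UMIs in Normal and 88 in the larger SAH class, or 29.4 and 7.09 CPM (log2 ratio -2.05, -2.45 to -1.66). Both genes were thus over 2-fold lower in these classes. Ndufa13, also known as Grim19, had 107 and 34.9 CPM in microglia-like nuclei (log2 ratio -1.62, -1.95 to -1.30), but its gene overlaps another on the same strand, so its count is uncertain. Ndufb5 was at -1.60 in microglia-like and -0.75 in excitatory-like nuclei, and Ndufa2 at -1.64 in oligodendrocyte-like nuclei. Ndufa4, which carries a complex I name but is now known as a subunit of complex IV, was lower in each class, from -0.64 in excitatory-like to -1.02 in oligodendrocyte-like nuclei. Its paralogue Ndufa4l2, known as induced by hypoxia, had 0 UMIs in Normal and 3 in SAH in excitatory-like nuclei and 0 in both libraries in the glial classes, at or under the limit of 3 counts.

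Complex II, succinate dehydrogenase, also belongs to the citric acid cycle, and all its subunits are nuclear-encoded. It showed the smallest differences of the 5 complexes in each main class. Its genes were also the longest, with a median genomic span of 20.7 kb. Its summed log2 ratio was -0.083 in excitatory-like, -0.24 in inhibitory-like, -0.17 in oligodendrocyte-like and -0.19 in microglia-like nuclei, the last with an interval that held 0 (-0.37 to 0.003). Sdha, the flavoprotein that oxidizes succinate, had 57.1 and 58.1 CPM in excitatory-like nuclei (log2 ratio 0.027, -0.046 to 0.10) and 93.4 and 81.9 in inhibitory-like nuclei (log2 ratio -0.19, -0.28 to -0.10). Sdhb, the iron-sulphur subunit, was lower by more, at -0.37 and -0.60. The membrane anchors Sdhc and Sdhd had ratios of -0.13 and -0.21 in excitatory-like nuclei. In the 4 main classes 1 of the complex II genes that passed was called lower, Sdhb in inhibitory-like nuclei. That is 1 of 4 there, or 25%, beside 18.7% of all genes.

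Complex III passes electrons from ubiquinol to cytochrome c. Its summed log2 ratio ran from -0.43 in excitatory-like to -0.88 in microglia-like nuclei, with large differences among its members. Uqcrc2, a core protein, had 40.5 CPM in Normal and 43.6 in SAH in excitatory-like nuclei (log2 ratio 0.11, 0.022 to 0.19). In inhibitory-like, oligodendrocyte-like and microglia-like nuclei its log2 ratios were -0.017, -0.11 and -0.26. Its partner Uqcrc1 had 20.8 and 13.4 CPM in excitatory-like nuclei (log2 ratio -0.63, -0.77 to -0.50) and was called lower in all 4 classes. In excitatory-like nuclei the intervals of the 2 core proteins, which stand in equal number in the complex, did not overlap. Uqcrfs1, the Rieske iron-sulphur protein that hands electrons to cytochrome c1, was lower in each class, with ratios of -0.75, -0.98 and -0.74 in excitatory-like, inhibitory-like and oligodendrocyte-like nuclei, and with 52 and 29 UMIs in microglia-like nuclei, under the minimum. Uqcr11, shown above with its NRF1 and ETS matches, had the lowest ratio of a member in inhibitory-like nuclei, with 10.2 and 3.43 CPM (log2 ratio -1.57, -1.93 to -1.22). The electron carriers cytochrome c and cytochrome c1, which the symbol rule left out of the members and of the complex III sum, were also lower. Cytochrome c (Cycs) had 8.84 and 4.83 CPM in excitatory-like nuclei (log2 ratio -0.87, -1.09 to -0.65), and cytochrome c1 (Cyc1) 14.9 and 9.31 (log2 ratio -0.68, -0.84 to -0.52).

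Complex IV, cytochrome c oxidase, reduces oxygen to water. It had the lowest summed log2 ratio of the 5 complexes in each main class: -0.77 in excitatory-like, -0.87 in inhibitory-like, -1.14 in oligodendrocyte-like and -1.03 in microglia-like nuclei. By the median of its members it was lowest only in microglia-like nuclei, at -1.02. In the other classes its medians were -0.79, -0.81 and -1.06, and those of complex III -0.80, -1.10 and -1.12. Complex V also had lower medians in excitatory-like and inhibitory-like nuclei, at -0.81 and -0.84. Over all listed genes, those of complex IV had the lowest median genomic span, at 3.93 kb. Those of complexes I, III and V had medians of 8.38, 4.91 and 7.18 kb. The complex IV median includes Cox4i2, Cox6b2, Cox7a1, Cox8b and Cox8c, which passed in no main class. The median span of the complex IV genes that passed was not computed. Whether the genes behind its ratios were the shortest is therefore not settled by these medians. The part of gene length in the order of the complexes was not tested. The catalytic subunits of complex IV are mitochondrial-encoded, and the nuclear genes counted here encode the subunits around them. Cox4i1, through which ATP slows the enzyme, had 119 CPM in Normal and 40.1 in SAH in oligodendrocyte-like nuclei (log2 ratio -1.57, -1.74 to -1.39), and 43.8 and 21.5 in excitatory-like nuclei (log2 ratio -1.03, -1.13 to -0.93). Its lung and hypoxia isoform Cox4i2 had at most 10 UMIs in a class and library, so no exchange of the isoforms was detectable at this depth. Cox8a, shown above with its ETS matches, had 114 and 38.04 CPM in microglia-like nuclei (log2 ratio -1.58, -1.89 to -1.27), and ratios of -1.29, -1.30 and -1.30 in the other 3. It was thus more than 2-fold lower in each class, and its paralogues Cox8b and Cox8c had at most 3 UMIs in any main class and library. Cox5a was lower by less in excitatory-like nuclei, at -0.52, than in microglia-like nuclei, at -1.11. Among the Cox7a paralogues, Cox7a2 was at -0.54 in excitatory-like and -0.90 in oligodendrocyte-like nuclei. Cox7a2l was at -0.30 and -0.047, and the muscle form Cox7a1 had at most 8 UMIs. Cox6b1 was called lower in all 4 classes, from -0.79 to -1.18, and the testis form Cox6b2 had at most 8 UMIs.

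Complex V, the ATP synthase, is built of a catalytic head, a turning stalk and a membrane ring. Its summed log2 ratio ran from -0.49 in excitatory-like to -0.85 in oligodendrocyte-like nuclei. Within the stalk itself 2 subunits stood at opposite ends of the members. The gene of the gamma subunit, Atp5c1, spans 24.5 kb on chromosome 2 (10056016 to 10080510, 7.79% exonic), and that of the epsilon subunit, Atp5e, 3.03 kb on chromosome 2 (174461072 to 174464105, 57.9% exonic). Atp5c1, the shaft of the stalk, had 41.95 CPM in Normal and 46.2 in SAH in excitatory-like nuclei (log2 ratio 0.14, 0.055 to 0.22), and its ratio was among the 3 highest of members with at least 200 UMIs in each main class. Atp5e, bound to it, had 7.50 and 2.23 (log2 ratio -1.75, -2.04 to -1.46), the lowest ratio of a member there, and 24.99 and 7.09 in oligodendrocyte-like nuclei (log2 ratio -1.82, -2.23 to -1.41). The head subunits lay between them. The alpha subunit Atp5a1 was at -0.47, -0.66, -0.82 and -0.57 in excitatory-like, inhibitory-like, oligodendrocyte-like and microglia-like nuclei, and the catalytic beta subunit Atp5b at -0.81, -0.97, -0.999 and -0.93. Atp5g1, Atp5g2 and Atp5g3 encode the same ring protein behind different import signals. Their ratios in oligodendrocyte-like nuclei were -1.55, -0.93 and -0.98, and in excitatory-like nuclei -0.95, -0.44 and -0.82, with Atp5g2 the least lowered in both.

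The size of the difference followed the genomic length of the gene. The members are short: their median span from first to last exon was 7.25 kb, beside 12.3 kb for all genes with a position on GRCm38. The latter include genes under the minimum of UMIs, and the median span of the genes that passed was not computed. In excitatory-like nuclei 1724 genes that passed spanned under 5 kb and 4799 over 50 kb. The 32 members called lower in all 4 classes had a median span of 6.79 kb (2.09 to 14.6), and the 12 called in none 24.4 kb (8.98 to 100.5). Ndufs4, Ndufs1, Ndufv2, Sdha, Uqcrc2 and Atp5c1 were among the latter, and Cox8a, Ndufa1, Uqcrq and Cox7c among the former. Summed, the 60 members under 10 kb went from 989.5 to 589 CPM in excitatory-like nuclei (log2 ratio -0.75) and from 2289 to 1042 in oligodendrocyte-like nuclei (-1.13). The 11 members of 20 kb or more went from 427 to 407 (-0.068) and from 518 to 496 (-0.061). The 15 members of 10 to 20 kb lay between, at -0.48 in excitatory-like and -0.82 in oligodendrocyte-like nuclei. In these classes the lower respiratory chain sum was thus carried mostly by members under 20 kb. Across members, span and log2 ratio had a Spearman correlation of 0.75 in excitatory-like, 0.75 in inhibitory-like, 0.63 in oligodendrocyte-like and 0.68 in microglia-like nuclei (n = 80, 80, 79 and 63), as a description of points from the same libraries.

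Short genes as a whole were lower too. Among all genes under 5 kb the median log2 ratio was -0.44 in excitatory-like, -0.61 in inhibitory-like, -0.71 in oligodendrocyte-like and -0.80 in microglia-like nuclei, and among genes of over 50 kb 0.016, -0.003, 0.18 and 0.21. Members under 5 kb had medians of -1.05, -1.27, -1.39 and -1.26, so they stood below other genes of that length. Members of 20 to 50 kb had medians of -0.13, -0.24, -0.076 and -0.027, close to those of all genes of that span at -0.15, -0.23, -0.082 and -0.07. Set against the median of the 500 genes nearest in span, the members' median became -0.34, -0.35, -0.52 and -0.39. On that scale 19, 19, 33 and 17 members were at least 1.5-fold lower (all genes 7.37%, 4.54%, 8.55% and 8.68%), in place of 46, 56, 59 and 41. What makes short genes lower in the SAH library was not tested.

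**Figure D3:**
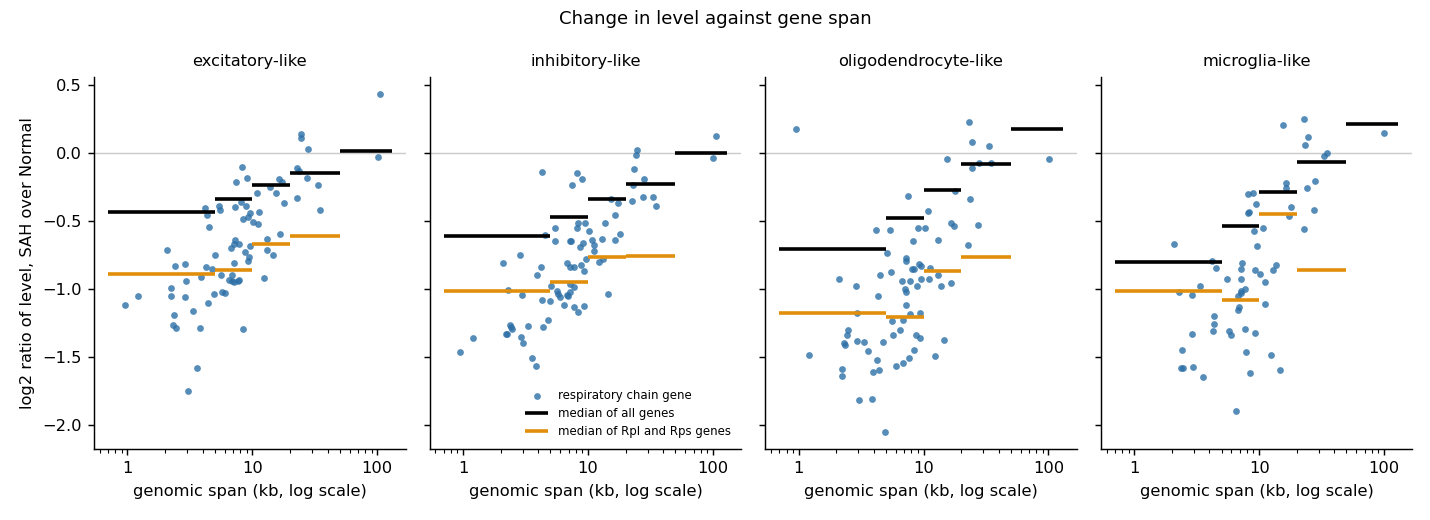
Log2 ratio of SAH over Normal against genomic span (kb, log axis) for each respiratory chain gene with at least 100 UMIs (points), with the median of all genes (black) and of Rpl and Rps genes (orange) in 5 span ranges drawn across the plotted part of each range. Most members under 10 kb lie below the median of all genes of their span, and members of 20 to 50 kb lie near it.

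The comparison lists set the scale of these differences. Rpl and Rps genes, which encode ribosomal proteins and are short and highly transcribed (median span 3.33 kb), had lower summed log2 ratios than the members. Of these genes 69 of 82 were called lower in excitatory-like nuclei (all genes 16.4%) and 62 of 80 in microglia-like nuclei (all genes 15.4%). Their sum went from 1288 to 721 CPM in excitatory-like nuclei (log2 ratio -0.84), and the ratios in inhibitory-like, oligodendrocyte-like and microglia-like nuclei were -0.94, -1.16 and -0.94. The RNA of the 13 mt- genes is made in mitochondria and reaches a nuclear preparation only with cytoplasm. Their sum went from 495 to 403 in excitatory-like nuclei (-0.30), and the other ratios were -0.46, -0.49 and -0.77. The members had -0.50, -0.63, -0.86 and -0.79. The mt- sum was thus lower by less than the members' sum in neurons and oligodendrocyte-like nuclei, and by a like amount in microglia-like nuclei. At like span the order of members and Rpl and Rps genes turned: under 5 kb the members' medians were -1.05, -1.27, -1.39 and -1.26, and those of Rpl and Rps genes -0.89, -1.01, -1.18 and -1.02. From 5 to 10 kb the Rpl and Rps medians were the lower ones, for example -0.86 against -0.70 in excitatory-like nuclei. The summed levels of nuclear and mitochondrial subunits of the chain were both lower in SAH in each class. Among the mt- genes, cytochrome b (mt-Cytb) was the lowest in each main class. Its log2 ratio was -0.85 in excitatory-like, -0.999 in inhibitory-like, -0.98 in oligodendrocyte-like and -1.25 in microglia-like nuclei. The gene mt-Co3, of complex IV, had a ratio of 0.11 (0.051 to 0.16) in excitatory-like nuclei. In inhibitory-like, oligodendrocyte-like and microglia-like nuclei its ratios were -0.077, -0.14 and -0.41. For mt-Nd5 the ratio was 0.24 (0.074 to 0.40) in excitatory-like nuclei and -0.055, 0.0059 and 0.0044 in those classes. A higher level in SAH was seen in mt-Nd6, the complex I subunit on the other strand of mitochondrial DNA. It had 48 UMIs in Normal and 167 in SAH in excitatory-like nuclei (log2 ratio 1.30, 0.83 to 1.79), 44 and 110 in inhibitory-like (log2 ratio 1.03, 0.51 to 1.57) and 12 and 104 in oligodendrocyte-like nuclei (log2 ratio 1.73, 0.87 to 2.73).

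Assembly factors and regulators showed smaller summed differences and smaller medians than the members. Their genes are longer, with median spans of 11.1 and 24.5 kb beside 7.25 kb for the members. The part of span in this contrast was not tested. Assembly factors, which build the complexes and are not part of them, had summed log2 ratios of -0.028, -0.11, -0.065 and 0.035 in excitatory-like, inhibitory-like, oligodendrocyte-like and microglia-like nuclei. In the first, 13 of 45 were called lower (all genes 16.4%) and 2 higher (all genes 12.4%). In the last, 2 of 20 were called lower (all genes 15.4%) and 3 higher (all genes 13.9%). The medians of the assembly factors were -0.27, -0.37, -0.16 and -0.082, so sum and median differed in sign in microglia-like nuclei. Pet100, a complex IV factor, was among the 2 largest differences in excitatory-like nuclei, at -1.43, and Taco1, which helps mitochondria translate the first complex IV subunit, in microglia-like nuclei, at 1.21. Regulators of mitochondrial genes had sums of 0.0089, -0.14, -0.014 and 0.077 and medians of -0.22, -0.27, -0.10 and 0.17, and there the signs differed in excitatory-like nuclei. Among them Ppargc1a, the PGC-1 alpha coactivator of respiratory genes, was higher in microglia-like nuclei, with 43 UMIs in Normal and 147 in SAH (log2 ratio 0.79, 0.29 to 1.32). This gene spans 113 kb, and all genes of over 50 kb had a median log2 ratio of 0.21 in microglia-like nuclei. Polrmt, the RNA polymerase of mitochondria, was among the 2 largest differences of this list in excitatory-like nuclei, at -1.29.

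Of the fuel pathways, glycolysis was lower and the citric acid cycle less so. Their genes had median spans of 15.4 and 24.7 kb, and the part of span in this difference was not tested. Glycolytic genes had summed log2 ratios of -0.52, -0.54, -0.58 and -0.43, with Ldha, which makes lactate, at -1.21 in excitatory-like and Gapdh at -1.57 in oligodendrocyte-like nuclei. Citric acid cycle genes were at -0.27, -0.37, -0.075 and 0.21. Without Suclg2, a subunit of succinyl-CoA ligase that went from 83.3 to 165 CPM in microglia-like nuclei, the last was 0.057 (-0.047 to 0.16), a check chosen after seeing the data. The Suclg2 gene spans 246 kb. In microglia-like nuclei 3 of 10 glycolytic genes were called lower and 0 higher, and 1 of 12 cycle genes lower and 1 higher. Of all genes there, 15.4% were called lower and 13.9% higher. The 2 largest differences of this list in microglia-like nuclei went opposite ways, in Suclg2 (0.99), and Idh3g, of isocitrate dehydrogenase (-0.84). As further lists of broadly expressed genes, the mitochondrial ribosome had median log2 ratios of -0.38 and -0.44 (sums -0.24 and -0.31) and the proteasome -0.40 and -0.53 (sums -0.24 and -0.32) in excitatory-like and oligodendrocyte-like nuclei, where the respiratory chain members had -0.69 and -0.96. Median spans were 7.90 kb for the mitochondrial ribosome and 12.1 kb for the proteasome, beside 7.25 kb for the members. Under 5 kb the mitochondrial ribosome had medians of -0.58 and -0.80 in these 2 classes, and the members -1.05 and -1.39. No test of these lists against each other was run.

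The difference was spread over the nuclei of each class. In excitatory-like nuclei the median share of respiratory chain RNA was 17.6 UMIs per 10000 in Normal (quartiles 14.1 and 22.1) and 11.8 in SAH (9.55 and 14.9). In oligodendrocyte-like nuclei it was 35.6 (25.2 and 50.4) and 18.7 (12.9 and 26.6). In both classes the distributions overlapped, and the lower quartile, the median and the upper quartile were all lower in SAH. Nuclei with no respiratory chain UMI made up 0.379% of Normal and 1.55% of SAH oligodendrocyte-like nuclei, and 0.565% and 1.90% of microglia-like nuclei. Inhibitory-like nuclei had medians of 26.4 and 16.6 per 10000, and microglia-like nuclei 39.8 and 23.2. With each nucleus thinned to 1000 UMIs, the mean was 2.83 UMIs in Normal and 1.73 in SAH in inhibitory-like nuclei, 3.75 and 2.00 in oligodendrocyte-like and 3.97 and 2.48 in microglia-like nuclei. In excitatory-like nuclei the thinned mean in SAH lay near 1 UMI, beside 1.90 in Normal, so that comparison rests on the unthinned values. Thinning left out 262 Normal and 88 SAH microglia-like nuclei as shallower, 152 and 199 oligodendrocyte-like nuclei, and at most 5 excitatory-like or inhibitory-like nuclei of a library. Nuclei of 1 library are not replicates, so these spreads describe the 2 libraries.

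**Figure D4:**
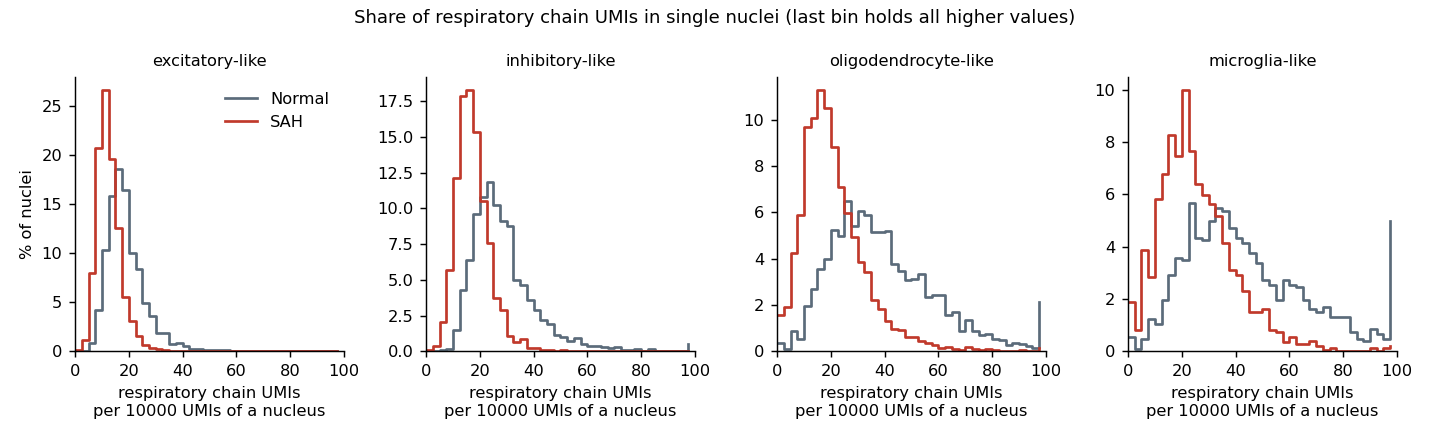
Percentage of nuclei (vertical axis) by respiratory chain UMIs per 10000 UMIs of the nucleus (horizontal axis, steps of 2.5) in Normal and SAH, with the last step holding all higher values. In each class the SAH curve lies to the left of the Normal curve, with medians of 11.8 and 17.6 in excitatory-like nuclei.

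Thalamic relay type and striatal spiny type neurons held lower respiratory chain levels in SAH as well, while 1 complex IV paralogue, Cox7b2, stood high in thalamic relay type nuclei of both libraries. Excitatory-like nuclei that also passed for thalamic relay markers numbered 109 in Normal and 183 in SAH, and inhibitory-like nuclei that passed for striatal spiny markers 347 in each. The members summed to 1972 and 1455 CPM in thalamic relay type nuclei (log2 ratio -0.44, -0.50 to -0.38) and to 2252 and 1524 in spiny type nuclei (-0.56, -0.61 to -0.52). Both types are subsets of the classes above and went the same way. Cox7b2, a paralogue of the complex IV subunit Cox7b, lies on GRCm38 at chr5:71442824-71548205 (minus strand), and 0.514% of its 105 kb is exonic. It had 52.7 CPM in Normal and 53.6 in SAH in thalamic relay type nuclei, against 7.33 and 9.88 in all excitatory-like nuclei (log2 ratio 0.43, 0.24 to 0.63). Its level in thalamic relay type nuclei was thus over 5-fold that in all excitatory-like nuclei in both libraries, and its ratio of SAH over Normal there was 0.022 (-0.33 to 0.38) (log2). Cox7b2 had the highest ratio of a member in excitatory-like nuclei, and in neurons with general markers only its log2 ratio was -0.13 (-0.30 to 0.036). Cox7b itself was lower in SAH in thalamic relay type nuclei, from 54.8 to 32.9 (log2 ratio -0.73, -1.13 to -0.34).

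Cox6a2, the heart and muscle form of a complex IV subunit, lies at chr7:128205435-128206387 (minus strand, 71.4% exonic) and had low counts in all classes. Normal inhibitory-like nuclei had 178 UMIs (7.96 CPM) and SAH inhibitory-like nuclei 79 (2.89), a log2 ratio of -1.46 (-1.86 to -1.07). Excitatory-like nuclei had less, at 1.60 and 0.74 CPM (log2 ratio -1.12, -1.68 to -0.57). Oligodendrocyte-like nuclei did not show the lower level, with 7.35 and 8.30 CPM (log2 ratio 0.18, -0.39 to 0.77). The broad form Cox6a1 was lower in each of these classes, at -1.27, -1.16 and -1.39. Whether the Cox6a2 ratios differ between classes was not tested, and the gene overlaps another on the opposite strand, as 28 members do. Several members also have processed pseudogenes of near-identical sequence elsewhere in the genome, and how reads shared with them were counted is not given in the sources used here.

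**Figure D5:**
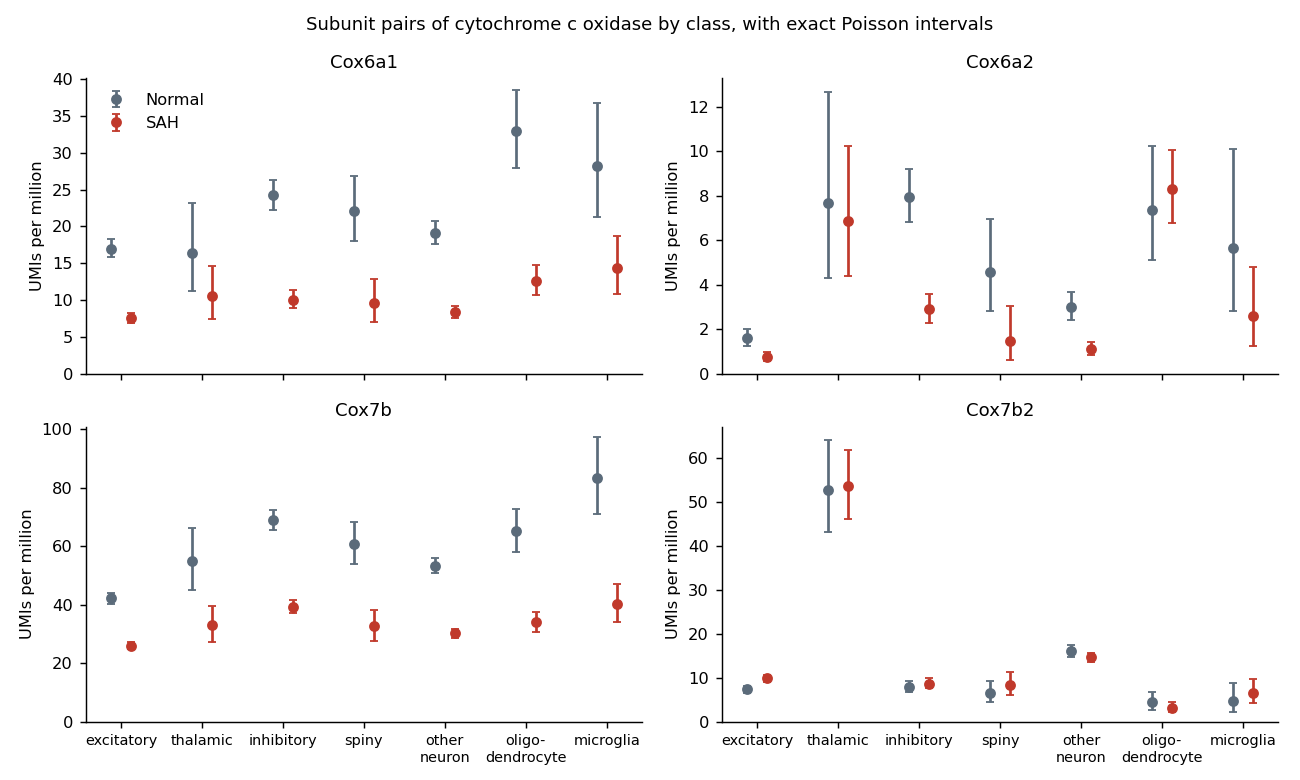
UMIs per 1000000 UMIs of the class (points) with exact Poisson 95% intervals for Cox6a1, Cox6a2, Cox7b and Cox7b2 in 7 sets of nuclei in Normal and SAH, where the thalamic and spiny sets are subsets of the excitatory and inhibitory classes. Cox7b2 stands out in the thalamic set in both libraries, at 52.7 and 53.6, while Cox6a1 and Cox7b are lower in SAH in all 7 sets.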

How the data were processed

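Nuclei of 1 Normal and 1 SAH library, each a pool of 3 mice, were measured by droplet single-nucleus RNA sequencing. The authors deposited 1 matrix of UMI counts per library, not normalized. The submitters' processing notes name Cell Ranger 5.0.0, and the file headers 6.1.2. Per the methods the reference was mm10, and reads in introns were counted. Nuclei with 300 to 7000 genes, under 10% mt- UMIs, under 3% haemoglobin UMIs and under 100000 UMIs were kept, and classes were gated on marker genes. The counts of a class were summed per library and divided by all its UMIs. With 1 library per group no test was possible. Levels carry exact Poisson and log2 ratios exact conditional binomial 95% intervals, which cover counting error only, and a fold of 1.5 described calls. Doublets were removed only in an alternative.

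Genes named were the core subunits (1 is not reported here), the paralogue groups, and the 3 lowest and 3 highest members per class with at least 200 UMIs. Of other lists the 2 largest differences per class were named. Sdhc, Sdhd, Uqcrq and Cox7c were named after their values were seen. The members, lists and rules were chosen with earlier results of these data known. Spans came from the GENCODE annotation of GRCm38 (99.8% of genes matched) and promoters from RefSeq on GRCm38.p6. The fold and interval code was tested on simulated counts. Python 3.11.15 with scipy 1.17.1, pandas 2.3.3 and scanpy 1.11.5 was used. Alternatives were no limits on nuclei, Scrublet scores, a stricter gate, clusters, 4 other scalings or weights of nuclei, and other minimums and folds.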

Additional observations from a re-analysis of the deposited data

How the results depend on the processing

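The summed level and the median kept their direction under every alternative run. Of 142 single values of named members that were run under 8 alternatives, 1 called value changed sign: Cox7c in microglia-like nuclei, at 0.084 when centred on genes of like length. Sign changes of values that were not called were not counted. Many single values left their counting interval without such a change: 111 of the 142 when centred on genes of like length. With nuclei thinned 57 of them did so, and centred on the median of all genes 39. The values below follow the order excitatory-like, inhibitory-like, oligodendrocyte-like and microglia-like nuclei unless named. Centred on genes of like length, the summed log2 ratio was -0.21, -0.22, -0.43 and -0.34, the median -0.34, -0.35, -0.52 and -0.39, and the members at least 1.5-fold lower 19, 19, 33 and 17. Centred on the median of all genes, the sums were -0.37, -0.44 and -0.80 in the first 3 classes, and the inhibitory-like median was -0.61. With nuclei thinned to equal depth the sums were -0.61, -0.71, -0.90 and -0.68, and fewer members passed the minimum. The lower members were then 21 of 42 in excitatory-like nuclei (50%, all genes 16.2%) and 24 of 38 in inhibitory-like nuclei (63.2%, all genes 15.9%). In microglia-like nuclei they were 9 of 20 (45%, all genes 10.6%). A stricter gate gave sums of -0.53 and -0.66 in the neuronal classes, and clusters in place of the gate -0.53 in excitatory-like and -0.72 in microglia-like nuclei. A fold of 2 gave 16, 29, 35 and 26 lower members. With a minimum of 400 UMIs, which tests fewer genes, 23 oligodendrocyte-like and 3 microglia-like members were lower, and the microglia-like median was -0.39. The shares of members and of all genes at this minimum were not computed. The cause of these shifts was not tested. The other alternatives (no limits on nuclei, doublets removed, mt- UMIs left out, a minimum of 50 or 1 UMI, a smaller fold) left the summed level within its counting interval and each count within 1.5 times. Leaving Suclg2 out of the citric acid cycle list, added after seeing the data, moved its microglia-like sum to 0.057.

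No paired analysis was possible because each group had 1 library. For the same reason no library was left out, and differences between mice, pools and libraries are unmeasured. Members under 100 UMIs in a class, most of them in microglia-like nuclei, were too shallow to describe singly.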
